A study of Mus musculus with 18 samples.

Results

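The 10 genes described here carry glucose into the heart muscle cell, store it and admit its carbon to the mitochondrion, and they were followed in mouse hearts with and without a tumour necrosis factor alpha (TNF) transgene. They are the glucose transporters Slc2a1 and Slc2a4, the glycogen enzymes Gys1 and Pygm, the pyruvate dehydrogenase subunit Pdha1 with its kinases Pdk2 and Pdk4, and the insulin receptor Insr with its substrates Irs1 and Irs2. Members were all probe sets to which the platform annotation gives 1 of these symbols and no other. Of the 10 genes, 9 had such a probe set, out of 8251 genes named on the array, and no probe set used here is named Pdk2. Slc2a4 had a second, dim probe set. After a filter that kept the brightest 60% of probe sets, 7 of the 9 genes could be tested: Slc2a1, Slc2a4, Gys1, Pygm, Pdk4, Pdha1 and Irs2.

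Total RNA of mouse heart had been hybridised to Affymetrix U74Av2 arrays, short-oligonucleotide arrays on which several probes per transcript are summarised into 1 signal. The transgenic (TG) groups were 3 females and 3 males of 3 weeks, 3 males of 13 weeks and 3 females of 40 weeks, and the comparison group was FVB mice of 3 weeks, with 2 distinct female arrays and 3 male arrays. The labels describe the TNF transgene as specific to the heart and do not name its promoter, the founder line or any treatment. Nothing in them tells separate animals from repeat hybridisations, so the spread behind every p-value here may be technical. FVB hearts of 13 or 40 weeks were not analysed here, and only TG males were sampled at 13 weeks and only TG females at 40 weeks. The later TG hearts are therefore compared with TG hearts of 3 weeks and the same sex.

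Insulin binds its receptor, a tyrosine kinase encoded by Insr, which phosphorylates the docking proteins Irs1 and Irs2 and so engages phosphoinositide 3-kinase and Akt. In heart and skeletal muscle this signal brings vesicles carrying the transporter GLUT4, the product of Slc2a4, to the cell surface and activates glycogen synthase, the product of Gys1, whereas GLUT1, the product of Slc2a1, takes up glucose without insulin and prevails in the fetal heart. Pyruvate made from glucose enters oxidation through pyruvate dehydrogenase, which the Pdk kinases switch off. Pdk4 is the isoform that rises with fasting and fatty acid supply.

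Before the members, 4 facts of the whole series bear on their values. TNF signal was 5475.5 to 12082.3 on the TG arrays and 12.5 to 124.9 on the FVB arrays, so each label of genotype was met. The array of FVB female 1 stood apart, with Spearman correlations of 0.775 to 0.856 to the remaining arrays, against 0.956 to 0.964 among the other FVB arrays. The arrays labelled FVB male 1 and male 2 had Xist signals of 1380.6 and 2705.7, against 5.9 on FVB male 3, and Xist is made from the inactive X chromosome of females. The Y-linked Eif2s3y was 298.7 on male 1, 67.4 on male 2 and 544.9 on male 3, and 115.3 and 40.9 on the FVB females, where TG males had 347.8 to 484.4 and TG females 2.9 to 30.8. FVB male 1 therefore carried signal of both markers, and FVB male 2 had Xist signal with Eif2s3y between the values of the FVB females. The 3-week difference of each tested member is therefore given with and without these 3 FVB arrays. Leaving them out keeps 2 FVB arrays, female 3 and male 3, and the fit then takes the spread from the other groups. The ratio of the 3′ to the 5′ probe set of beta-actin, which rises as RNA is shortened, was 1.12 to 1.44 in TG hearts of 3 weeks, 1.23 to 1.48 at 13 weeks and 1.39 to 1.77 at 40 weeks, against 1.29 to 1.97 in FVB hearts.

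At 3 weeks of age, TG hearts had less mRNA signal than FVB hearts for 5 of the 7 tested genes (Slc2a4, Gys1, Pygm, Pdk4 and Pdha1), more for Slc2a1, and no difference past the threshold for Irs2. Slc2a4 signal in TG hearts was 31.1% of the FVB mean and Pdk4 signal 24.6%, whereas Slc2a1 signal was 334% of it. In limma's test, a moderated linear model on log2 signal with Benjamini-Hochberg adjustment over all 7453 tested probe sets and calls at 0.05, 1 member was called higher and 5 lower. Among all tested probe sets 46.6% were called, 24.7% higher and 21.9% lower, so a call alone sets no member apart in this comparison. The median log2 difference over the 7 genes was -1.35, and that over all tested probe sets was -0.0065. Signals of the TG and FVB groups did not overlap for 5 of the 7 genes, against 23.6% of all tested probe sets. In bulk heart RNA, fewer cells of a type and less RNA per cell cannot be told apart.

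**Figure D1:**
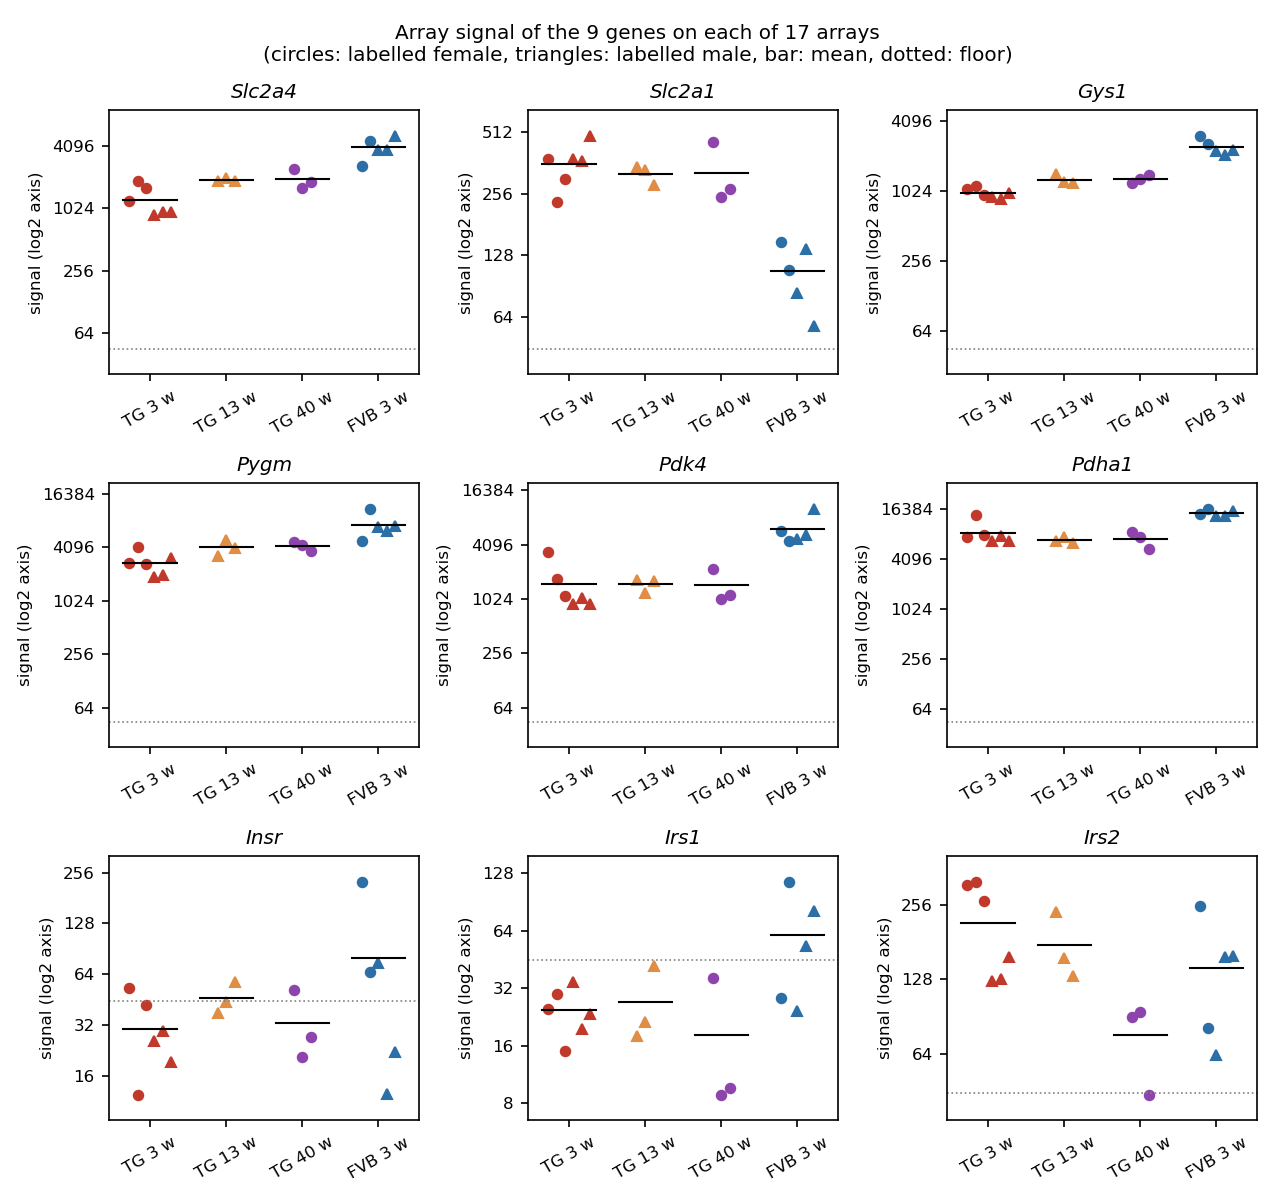
Signal of the 9 genes on each of the 17 arrays (log2 axis, arbitrary units as deposited), for TG hearts of 3, 13 and 40 weeks and FVB hearts of 3 weeks, with circles for arrays labelled female, triangles for male, a bar at the group mean and a dotted line at the floor. Slc2a4, Gys1, Pygm and Pdk4 lie lower on all 6 TG arrays of 3 weeks than on any FVB array, and Slc2a1 lies higher on all of them.

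The transporters moved in opposite directions. Slc2a4 signal in TG females of 3 weeks was 1207.1, 1883.1 and 1626.3, and in TG males 883.1, 944.3 and 940.7, against 2670 and 4659.5 in FVB females and 3747.6, 3816.5 and 5179.5 in FVB males. Every TG array was lower than every FVB array, and within TG the males were lower than the females. The log2 difference was -1.69 (SE 0.17, adjusted p = 1.2e-06), a 3.22-fold lower level in TG hearts, with a 95% interval of -2.06 to -1.32, and it was -2.04 without those 3 FVB arrays. The second Slc2a4 probe set lay near the detection floor of 44.675 in all groups, at 31.4 to 71.7 in TG hearts of 3 weeks and 21.2 to 81.5 in FVB hearts, and gives no reading of the gene.

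Slc2a1 signal in TG hearts of 3 weeks was 377, 233.6 and 301.2 in females and 378.4, 368.8 and 489.6 in males, against 148.6 and 108.6 in FVB females and 83.9, 136.8 and 57.4 in FVB males. The lowest TG array lay above the highest FVB array. The log2 difference was 1.73 (SE 0.22, adjusted p = 1.4e-05), a 3.32-fold higher level in TG hearts, and 2.14 without the 3 FVB arrays. Taken within each array, so that any factor common to an array drops out, log2 Slc2a1 minus log2 Slc2a4, set to 0 at the FVB mean, was 2.26 to 4.33 in TG hearts with a median of 3.76 and -1.22 to 1.11 in FVB hearts. The difference of means was 3.50 (SD 0.79 in TG, n = 6, and 0.87 in FVB, n = 5), with a two-sided exact permutation p of 0.00433, the smallest these group sizes allow, and 0.0130 after Benjamini-Hochberg adjustment over 3 such ratios. Without the 3 FVB arrays it was 4.19. Each gene on its own already separated all TG from all FVB arrays, in opposite directions. Their ratio had to separate them too, so its p-value was fixed in advance and adds no support.

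The 250 bases before the RefSeq transcription start (mouse GRCm38.p6) are shown for 3 members: Slc2a1, which had the largest positive difference at 3 weeks, Pdk4, which had the largest negative one, and Irs2, the member called between ages. Each is written 5′ to 3′ along the gene's strand in lower case, with capitals for matches to 8 short motifs searched on both strands (the TATA box TATAAA, the CCAAT box, the GC box GGGCGG, the hypoxia response element core ACGTG, the E-box CACGTG, which contains that core, the insulin response element core TGTTTTG, the FOXO core GTAAACA and the nuclear receptor half-site AGGTCA). The windows lie at chr4:119108495-119108744 on the plus strand, chr6:5496279-5496528 on the minus strand and chr8:11008930-11009179 on the minus strand.
Slc2a1: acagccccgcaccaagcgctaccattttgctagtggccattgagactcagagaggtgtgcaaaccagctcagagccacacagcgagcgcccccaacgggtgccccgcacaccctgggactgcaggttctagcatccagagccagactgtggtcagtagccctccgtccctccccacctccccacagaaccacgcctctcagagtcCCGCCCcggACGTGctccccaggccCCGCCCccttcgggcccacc
Pdk4: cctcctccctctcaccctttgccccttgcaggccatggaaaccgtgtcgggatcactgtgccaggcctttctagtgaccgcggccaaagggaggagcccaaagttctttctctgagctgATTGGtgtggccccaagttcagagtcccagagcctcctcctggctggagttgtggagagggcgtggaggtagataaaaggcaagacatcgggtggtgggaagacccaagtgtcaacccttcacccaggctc
Irs2: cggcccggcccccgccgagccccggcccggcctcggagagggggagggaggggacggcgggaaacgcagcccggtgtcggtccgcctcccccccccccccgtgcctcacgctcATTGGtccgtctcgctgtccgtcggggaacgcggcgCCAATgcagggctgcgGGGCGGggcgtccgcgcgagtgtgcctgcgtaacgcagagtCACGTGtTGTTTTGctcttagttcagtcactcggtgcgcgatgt
Slc2a1 held GC boxes (GGGCGG, on the opposite strand) from -45 and -20 and, between them, the hypoxia element core, from -36 to -32. Pdk4 held only CCAAT, at -131 on the opposite strand. Irs2 held CCAAT on each strand, a GC box, the E-box at -44 to -39 and, 1 base further on, the insulin response element core at -37 to -31. Irs1, of the same family, held the E-box at -115 to -110 overlapping an insulin response element core that starts at -111. Over the 32851 promoter windows of the same length, the GC box was found in 32.7%, the CCAAT box in 33.8%, the hypoxia element core in 16.6%, the E-box in 6.02% and the insulin response element core in 5.56%, and the TATA box, FOXO core and receptor half-site, which none of these 3 windows held, in 12.4%, 3.17% and 14.0%. These matches describe the sequence and were not tested as sites, and 7 of the 10 genes had a window.

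Both glycogen enzymes were lower in TG hearts of 3 weeks. Gys1, muscle glycogen synthase, had signals of 1051.6, 1121.8 and 931.1 in TG females and 906.8, 874.4 and 977.7 in TG males, against 3029.1 and 2568.6 in FVB females and 2244.1, 2077.3 and 2274.1 in FVB males. The TG arrays kept within a narrow band of 874.4 to 1121.8, far below the FVB arrays. Its log2 difference was -1.35 (SE 0.11, adjusted p = 1.3e-07), the smallest adjusted p among the members, and -1.31 without the 3 FVB arrays. Pygm, the muscle glycogen phosphorylase that releases glucose units from glycogen, had 2683.8, 4147.6 and 2672.4 in TG females and 1872.4, 1975.3 and 3083.3 in TG males, against 4827 and 11076.9 in FVB females and 6827.5, 6212.5 and 7064.4 in FVB males. TG and FVB signals did not overlap, and the FVB females were far apart. The log2 difference of Pygm was -1.41 (SE 0.22, adjusted p = 7.5e-05), and -1.74 without the 3 FVB arrays.

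At the entry of pyruvate into oxidation, Pdk4 had the largest difference of the members. Its signal in TG females was 3376.9, 1715.9 and 1115.8 and in TG males 911.4, 1042.5 and 891.7, against 5832.4 and 4496.9 in FVB females and 4783.5, 5262.6 and 10238.3 in FVB males. All TG arrays were below all FVB arrays, with TG female 1 the highest of its group and FVB male 3 the highest of its own. The log2 difference was -2.10 (SE 0.28, adjusted p = 2.0e-05), a 4.30-fold lower level in TG hearts, and -2.35 without the 3 FVB arrays, where FVB male 3, the highest array, is 1 of the 2 left (-3.44 in males). Without FVB male 3 alone the difference was -1.93. Pdha1, the catalytic E1 alpha subunit on which the Pdk kinases act, had 7468.1, 13990.6 and 8022.8 in TG females and 6723, 7795.3 and 6702.5 in TG males, against 14413.6 and 16490.5 in FVB females and 13322.6, 13544.1 and 15345.2 in FVB males. The groups overlapped through TG female 2 alone, and the other 5 TG arrays lay below all FVB arrays. The log2 difference of Pdha1 was -0.85 (SE 0.17, adjusted p = 8.0e-04), and -0.96 without the 3 FVB arrays.

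Within arrays, Pdk4 was lower relative to Pdha1: log2 Pdk4 minus log2 Pdha1, set to 0 at the FVB mean, was -1.71 to 0.18 in TG hearts of 3 weeks and -0.55 to 0.74 in FVB hearts. The difference of means was -1.30 (SD 0.72 in TG, n = 6, and 0.47 in FVB, n = 5, two-sided exact permutation p = 0.0216, and 0.0216 adjusted over the 3 ratios), and TG female 1 lay inside the FVB range. Without the 3 FVB arrays the difference was -1.39. Slc2a4 relative to Pdha1 was -1.15 to -0.41 in TG hearts and -0.54 to 0.33 in FVB hearts, a difference of -0.88 (SD 0.27 and 0.32, n = 6 and 5, exact permutation p = 0.00866, adjusted 0.0130), and -1.08 without the 3 FVB arrays.

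The receptor and its substrates were dim on these arrays. Irs2 signal in TG females of 3 weeks was 305.9, 316.7 and 264 and in TG males 126.6, 128.2 and 157.2, against 252.1 and 81.7 in FVB females and 63.5, 157.6 and 159.4 in FVB males. TG females lay above all FVB arrays, and TG males lay among them. The log2 difference was 0.63 (SE 0.31, adjusted p = 0.108, 95% interval -0.030 to 1.29), so it did not pass the threshold. It did pass without FVB female 1 (1.04, adjusted p = 0.0128) and without the 3 FVB arrays (0.81, adjusted p = 0.0397), and without FVB female 3 it was 0.23 (adjusted p = 0.558). Insr was 12.5 to 53.1 in TG hearts of 3 weeks and 12.6 to 226.1 in FVB hearts, and Irs1 was 15 to 34.3 in TG hearts and 24.4 to 115.2 in FVB hearts. Both genes were removed by the filter on low signal, and Irs1 lay under the floor on all 6 TG arrays of 3 weeks and Insr on 5 of them. With all 12422 probe sets tested instead, Insr was lower in TG hearts by a log2 difference of -0.81 (adjusted p = 0.0313), and Irs1 differed by -0.53 (adjusted p = 0.0707). Both values turn on FVB female 1, the array with the highest Insr at 226.1 and an Irs1 of 28.3. A fit without that array was added after the data were seen and keeps 1 FVB female. Insr then differed by -0.37 and Irs1 by -0.87. Irs1 was at the floor on every TG array of each age, so the TG groups show no spread. No p-value of Irs1 can therefore be relied on.

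Signals of cell types moved with these differences at 3 weeks. Of 18 cardiomyocyte markers tested, 17 were lower in TG hearts and none higher, with a median log2 difference of -1.06, and their summed signal was 160966 to 317114 in TG hearts against 325413 to 502616 in FVB hearts. Of 15 macrophage markers tested, all 15 were higher, with a summed signal of 51081 to 68017 over the 17 on the array in TG hearts against 5014 to 7144 in FVB hearts. Adipocytes also hold much GLUT4, and 4 of 6 tested adipocyte markers were lower, with Retn, Cidec, Pck1 and Car3 at the floor on every TG array of 3 weeks and Cidec at the floor on every FVB array too. The summed adipocyte signal was 7943 to 15177 in TG hearts against 18471 to 26507 in FVB hearts. Endothelial markers were lower for 5 of 12 (summed 13450 to 15784 in TG, 12920 to 23105 in FVB), and erythroid markers for 3 of 6 (24309 to 38497 in TG, 43167 to 64095 in FVB). Fibroblast markers were higher for 4 and lower for 3 of 11 (32992 to 43232 in TG, 29667 to 48167 in FVB), and skeletal muscle markers higher for 1 and lower for 4 of 7 (16868 to 23261 in TG, 14465 to 18338 in FVB). The adipocyte and endothelial lists both name Fabp4, and the skeletal muscle and cardiomyocyte lists both name Ckm, so these lists are not separate readings. The part of these cell types in the members' differences was not tested.

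When each array was instead centred on its cardiomyocyte markers, a scale added after the data were seen, the median of all probe sets shifted to 1.01, and members are best read against it. Slc2a1 was then higher, at a log2 difference of 2.74 (adjusted p = 1.4e-07), and Slc2a4 (-0.68, adjusted p = 0.0029) and Pdk4 (-1.09, adjusted p = 0.0016) were still called lower. Gys1 (-0.33, adjusted p = 0.112) and Pygm (-0.39, adjusted p = 0.146) were no longer called, Pdha1 changed sign at 0.16 (adjusted p = 0.431), and Irs2 was called higher at 1.64 (adjusted p = 1.3e-04). On that scale 5806 probe sets were called higher and 33 lower, against 1843 and 1631 on the deposited scale, and a common median for the arrays, which shifted the median of all probe sets to -0.11, gave 1557 and 2070.

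Taken separately, TG females and TG males of 3 weeks each had the same 6 members called, Slc2a1 higher and Slc2a4, Gys1, Pygm, Pdk4 and Pdha1 lower, where 34.7% of all tested probe sets were called in females and 29.7% in males. In females, the log2 differences were -1.19 for Slc2a4, 1.23 for Slc2a1 and -1.46 for Pdk4 (adjusted p = 0.0031, 0.0113 and 0.0152). In males they were -2.19, 2.23 and -2.75 (adjusted p = 2.9e-06, 3.3e-05 and 3.9e-05). Gys1 differed by -1.43 in females and -1.26 in males, Pygm by -1.24 and -1.57, and Pdha1 by -0.71 and -0.99. The male calls rest on FVB arrays of which those labelled male 1 and male 2 carried Xist signal. The female calls rest on 2 FVB arrays and on a spread shared with the other groups. With array weights, where 699 of all probe sets were called in place of 2587, only Gys1 was called among the members in females (adjusted p = 0.0579 for Slc2a4, 0.140 for Slc2a1 and 0.151 for Pdk4), and with only the groups compared Gys1 and Slc2a1 were. Leaving out either FVB female array leaves 1, assumed to vary like the other groups: without female 3 Slc2a4, Gys1 and Pdk4 were called, and without female 1, or without all 3 FVB arrays, Slc2a1, Slc2a4, Gys1, Pygm and Irs2 (1.85) were.

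The point estimates of Slc2a4, Slc2a1 and Pdk4 were further from 0 in males than in females, but the difference between the sexes was not called for any member, nor for any probe set. The female minus the male difference was 0.997 for Slc2a4 (adjusted p = 0.201, 95% interval 0.26 to 1.74), -1.001 for Slc2a1 (adjusted p = 0.284, -1.95 to -0.047) and 1.29 for Pdk4 (adjusted p = 0.274, 0.09 to 2.49). These 3 members and 1228 probe sets in all had an unadjusted p under 0.05 in limma. Without FVB female 3, which leaves 1 FVB female array, Slc2a4 was called (1.40, adjusted p = 0.0125), but so were 1490 of the 7453 probe sets. With 2 of the 3 FVB arrays labelled male carrying Xist signal, the sexes here are those of the labels.

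**Figure D2:**
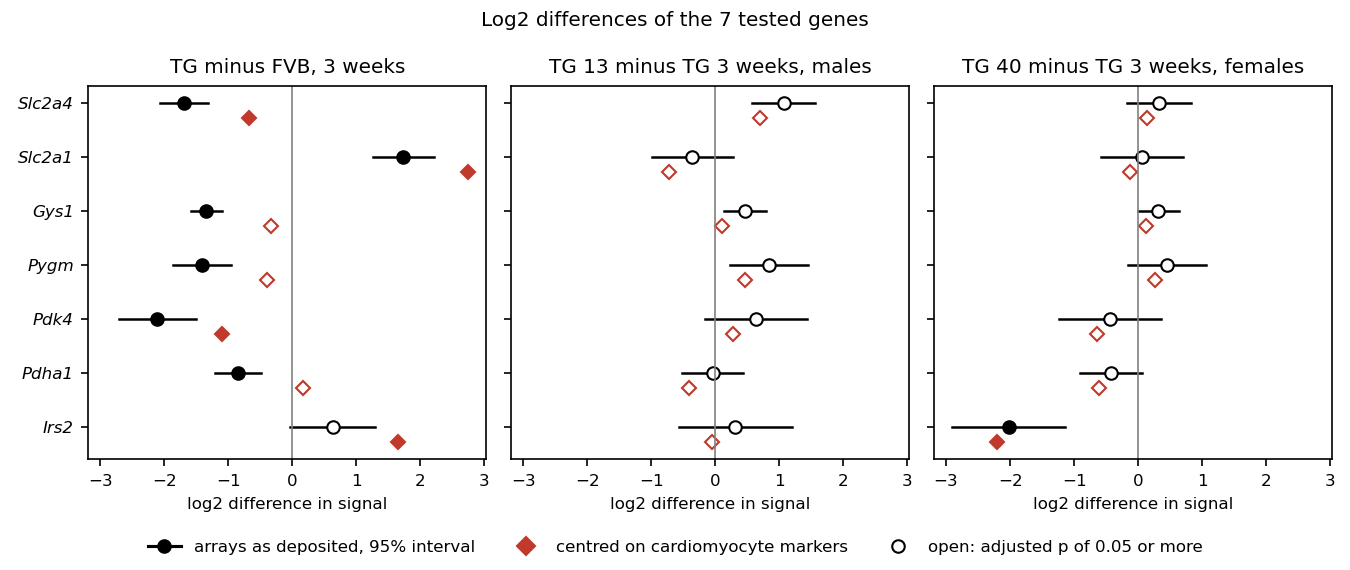
Log2 differences of the 7 tested genes for TG minus FVB hearts at 3 weeks, TG males of 13 minus 3 weeks and TG females of 40 minus 3 weeks: circles with 95% intervals are the arrays as deposited, diamonds the arrays centred on cardiomyocyte markers, and filled symbols have an adjusted p under 0.05. At 3 weeks Pdha1 lies on opposite sides of 0 on the 2 scales, and among the age differences only Irs2 at 40 weeks is filled, on both.

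No member was called in TG males of 13 weeks against TG males of 3 weeks, where 0.523% of all tested probe sets were. Slc2a4 came nearest: its signal was 1894.4, 2024.7 and 1882.8 at 13 weeks, against 883.1, 944.3 and 940.7 at 3 weeks. The groups were far apart with little spread in either, and the log2 difference was 1.07 (SE 0.23, adjusted p = 0.0540, 95% interval 0.57 to 1.56). Under 6 other settings, among them quantile normalization (adjusted p = 0.0256) and array weights (adjusted p = 0.00965), Slc2a4 was called higher at 13 weeks, and centred on cardiomyocyte markers it was 0.70 (adjusted p = 0.312). Signals at 13 weeks were also all above those at 3 weeks for Gys1 (0.47, adjusted p = 0.288), Pygm (0.84, adjusted p = 0.322) and Pdk4 (0.64, adjusted p = 0.742) and all below for Slc2a1 (-0.36, adjusted p = 0.874). Non-overlap of this kind was found for 15.8% of all tested probe sets, and in limma 3 members and 642 probe sets in all had an unadjusted p under 0.05. The cardiomyocyte markers had a median log2 difference of 0.34 between these ages, with 1 of 18 called higher, and a summed signal of 195982 to 264442 in TG males of 13 weeks against 160966 to 208070 in TG males of 3 weeks. The macrophage markers had a median of -0.31, with none of 15 called, and summed to 47859 to 63090 in TG males of 13 weeks against 54785 to 68017 in TG males of 3 weeks. Their part in the members' values was not tested.

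In TG females of 40 weeks, Irs2 was lower than in TG females of 3 weeks, and it was the 1 member called where 0.671% of all tested probe sets were called and 0.295% were called lower. Its signal was 90.7, 95.1 and 44.1 at 40 weeks, against 305.9, 316.7 and 264 at 3 weeks. The groups did not overlap, the lowest array of 40 weeks was just under the floor, and the log2 difference was -2.02 (SE 0.42, adjusted p = 0.0329). The call was lost in 5 of the 6 fits that left out 1 of these arrays (adjusted p = 0.0607 to 0.182) and with all probe sets tested (adjusted p = 0.0934). The other members gave 0.33 for Slc2a4, 0.06 for Slc2a1, 0.31 for Gys1, 0.45 for Pygm, -0.45 for Pdk4 and -0.43 for Pdha1, with adjusted p from 0.573 to 0.986. Of these, Gys1 signals did not overlap between the ages, as for 17.1% of all tested probe sets. No difference between the 40-week change in females and the 13-week change in males was called for any member or probe set, and for Irs2 it was -2.33 (adjusted p = 0.9997). In limma 2 members, Slc2a4 and Irs2, and 214 probe sets in all had an unadjusted p under 0.05 there. Age and sex cannot be told apart in that contrast.

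Set beside the FVB hearts of 3 weeks, which differ in age and so give no test, the later TG hearts had levels outside the FVB range for most members. Each later group is read against TG hearts of its own sex. In males, Slc2a4 was 48.2% of the FVB mean at 13 weeks and 23.0% at 3 weeks, Pygm 56.6% and 32.1%, Gys1 52.2% and 37.7%, and Pdk4 24.3% and 15.5%. Pdha1 was at 47.0% at 13 weeks and 48.4% at 3 weeks, Slc2a1 at 299% and 385%, and Irs2 at 123% and 96.1%. In females, Slc2a4 was 49.0% at 40 weeks and 39.2% at 3 weeks, Pygm 59.0% and 44.0%, Gys1 52.7% and 42.4%, and Pdk4 23.7% and 33.8%. Pdha1 was at 48.9% at 40 weeks and 67.2% at 3 weeks, Slc2a1 at 302% and 284%, and Irs2 at 53.6% and 207%. The highest Slc2a4 signal of the later TG hearts, 2465.4, lay below the lowest FVB signal of 2670, whereas for Pygm 1 TG heart of 13 weeks, at 4942.9, lay above the lowest FVB heart at 4827. Between 13 and 3 weeks in TG males Pdha1 and Irs2 overlapped and the other 5 tested members did not, where 15.8% of all tested probe sets did not. Between 40 and 3 weeks in TG females 5 overlapped and Gys1 and Irs2 did not, where 17.1% of all tested probe sets did not. Of these age differences only Irs2 at 40 weeks was called.

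The other genes of the pathway, 165 in 6 lists, were read the same way. Of 104 on the array 90 were tested, and at 3 weeks 13 were higher and 34 lower in TG hearts, with a median of -0.24, where all tested probe sets gave 24.7% higher and 21.9% lower. Without the 3 FVB arrays 13 were higher and 21 lower, where 1549 and 1106 of all 7453 tested probe sets were. Centred on cardiomyocyte markers 63 were higher and 0 lower, where 5806 and 33 of all 7453 were. The named genes below that were lower on the deposited scale were therefore not called lower on that scale, while those that were higher stayed called higher. The list on the fate of pyruvate had 1 of 10 tested genes higher and 8 lower. The higher one was Pdk3, a kinase of pyruvate dehydrogenase like Pdk4, with 360.8 to 701.7 in TG hearts against 31.7 to 115.7 in FVB hearts (log2 difference 2.92, SE 0.18, adjusted p = 3.0e-09). Pdk3 thus differed in the opposite direction to Pdk4. Its FVB signals lay near the floor of 44.675, the lowest under it, so the size of its difference is uncertain. The filter took the mean over all arrays, most of them TG, so the TG signals helped Pdk3 to be tested. Ldhb, the heart form of lactate dehydrogenase (-1.01, adjusted p = 3.1e-04), Me1, malic enzyme (-0.92, adjusted p = 1.2e-04), and Pdhb, the E1 beta partner of Pdha1 (-0.76, adjusted p = 5.8e-04), were lower.

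Insulin signalling genes were split, with 5 of 27 tested higher and 5 lower. Among all tested probe sets 24.7% were called higher and 21.9% lower, so these counts do not set the list apart. Ptpn1, the phosphatase that removes phosphate from the insulin receptor, was higher by 1.49 on the log2 scale (1775.9 to 2505.9 in TG hearts, lowest FVB heart 710.7, adjusted p = 4.8e-06), and Socs3, which binds the receptor and marks Irs proteins for degradation, by 1.37 (adjusted p = 6.4e-05). The adaptor Shc1 was higher by 0.66. Tsc2, a brake on mTOR that Akt inactivates, differed by -1.01 (adjusted p = 1.2e-05), the transcription factor Foxo3 by -0.92 (adjusted p = 3.1e-04), and Akt2, the Akt form that drives GLUT4 to the surface, by -0.76 (adjusted p = 0.0021). Among transporters and GLUT4 vesicle genes 4 of 18 were higher and 6 lower, to be read against the same shares. Stxbp3, or Munc18c, which binds the syntaxin of GLUT4 vesicle fusion, was higher by 1.46 (adjusted p = 2.3e-06), and the vesicle SNARE Vamp2 (-0.52), the transporter Slc2a8 (-0.59) and the muscle caveolin Cav3 (-0.50) were lower.

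Of 13 other glycogen genes tested, 1 was higher and 5 were lower in TG hearts of 3 weeks. The shares over all tested probe sets were 24.7% higher and 21.9% lower. Pgm2, a phosphoglucomutase, was higher by 1.02, while Pygb, the brain form of the phosphorylase (-1.23, adjusted p = 5.8e-06), Pgm1 (-0.85) and the lysosomal glucosidase Gaa (-0.89) were lower. Regulators of Pdk4 and Slc2a4 transcription were lower for 9 of 19 and higher for 2, to be read against the same shares. Ppara, the fatty acid receptor that induces Pdk4, was 556.9 to 1200.4 in TG hearts against 1829.6 to 2173.6 in FVB hearts (-1.29, adjusted p = 3.2e-06), Esrra, the estrogen-related receptor alpha, differed by -0.96 (adjusted p = 1.2e-04), and Hif1a, the oxygen-regulated subunit of HIF-1, was higher by 1.23 (4975.1 to 6947.5 in TG hearts against 2026.3 to 3641.7 in FVB hearts, adjusted p = 2.2e-06). The cardiomyocyte and macrophage shifts above move with these lists too, and their part was not tested. Of 4 subunits and partners of AMP-activated kinase, Prkab1 (-0.40) and Prkag1 (-0.43) were lower on the deposited scale. Centred on cardiomyocyte markers they were called higher (0.61 and 0.58), as were Vamp2 (0.49) and Cav3 (0.51). The median of all probe sets was 1.01 on that scale, so each of these values lay below the typical probe set. Prkab1 (-0.27) was not called without the 3 FVB arrays.

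**Figure D3:**
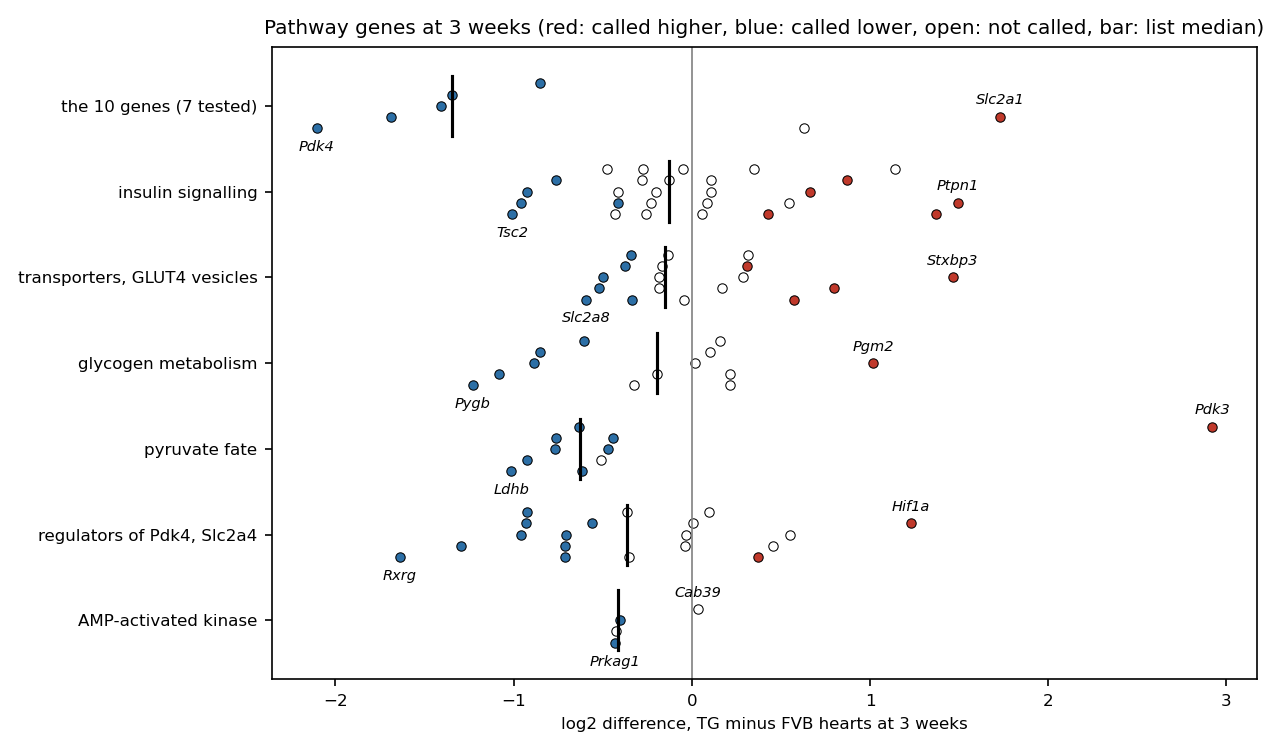
Log2 difference, TG minus FVB hearts at 3 weeks, of each tested gene in the member list and the 6 pathway lists, with the gene at each end of a list named. Points called higher are red, points called lower blue and the rest open, and the bar is the list's median. Pdk3 lies furthest right at 2.92 and Pdk4 furthest left at -2.10.

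None of the 90 pathway genes was called between 13 and 3 weeks in TG males, where 0.523% of all tested probe sets were. In TG females of 40 weeks against 3 weeks 2 were called, both lower. Among all tested probe sets 0.671% were called there and 0.295% were called lower. Cav3 had 1054.8 to 1184 at 40 weeks against 2233.7 to 2708.4 at 3 weeks (-1.10, adjusted p = 0.0042), and Nr4a1, an orphan nuclear receptor of the immediate early class, had 200.5 to 457.3 against 900 to 1120.5 (-1.72, adjusted p = 0.0331). Cav3 was also called in each of the 6 fits that left out 1 of these arrays and with no filter, whereas Nr4a1 was lost with no filter (adjusted p = 0.0874) and in 5 of those 6 fits (adjusted p = 0.0832 to 0.182), being called without TG female 1 of 40 weeks.

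The genes whose log2 signal followed each member most closely over the 17 arrays were named by Pearson's r, as a description, since the arrays fall into genotype groups and share those differences. For Slc2a4 they were Adssl1, the muscle adenylosuccinate synthase (0.973), Pde4dip (0.963) and Pygb (0.960). For Pdk4 they were Acadm, a dehydrogenase of fatty acid oxidation (0.950), Ryr2, the calcium release channel (0.940), and Slc25a20, the carnitine-acylcarnitine carrier (0.933). Pdha1 was closest to the complex I subunit Ndufs1 (0.963), Fhl2 (0.956) and Ldha (0.953), Pygm to the hexokinase Hk2 (0.942), Ivd (0.940) and Pygb (0.939), and Gys1 to Map7 (0.959), the calcium channel subunit Cacna1c (0.958) and Klhl21 (0.956). Slc2a1 was closest to Ncf1, a subunit of the phagocyte NADPH oxidase (0.959), Nfkbie, an inhibitor of NF-kB (0.953), and Cd55 (0.953). The values for Irs2 were lower, with Nr4a1 (0.859, and 0.850 without FVB female 1), Ssr2 (0.745) and Tmem183a (0.722).

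**Figure D4:**
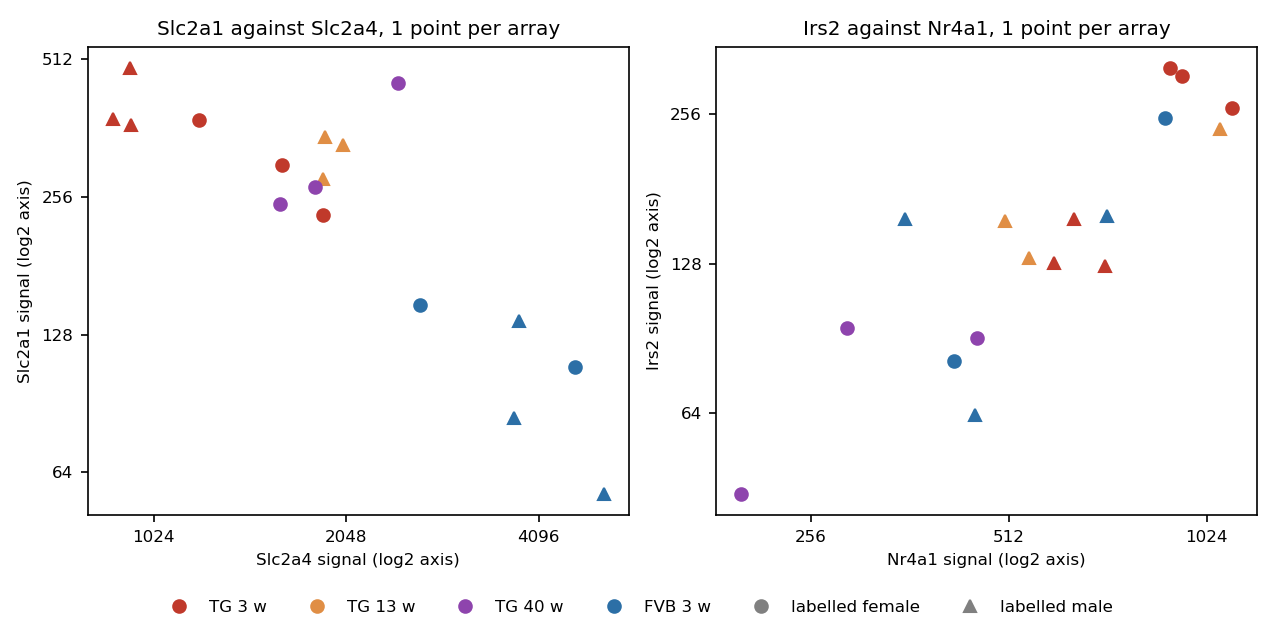
Signal of Slc2a1 against Slc2a4 and of Irs2 against Nr4a1 (log2 axes), 1 point per array, coloured by group, with circles for arrays labelled female and triangles for male. All TG arrays lie toward lower Slc2a4 and higher Slc2a1 than all FVB arrays, whereas for Irs2 and Nr4a1 TG and FVB arrays are mixed and the TG arrays of 40 weeks lie toward the low end.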

How the data were processed

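The authors deposited, for each array, a probe set signal intensity on a linear scale with 1 decimal. How it was computed and scaled is not given in the sources used here. The trimmed means (between the 2nd and 98th percentiles) were 499.2 to 499.9 on the 17 distinct arrays, so they were used as deposited. Of 18 columns, FVB female 1 and 2 hold identical values and were counted as 1 sample. Groups, sexes and ages came from the sample titles. The number of arrays limits the precision.

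A floor at the 25th percentile of the pooled signals (44.675) was applied before taking log2. Without 66 control probe sets 12422 remained, of which the brightest 60% by mean were tested with limma 3.58.1 under R 4.3.3 (two-sided moderated tests, 6 group means in 1 fit, 11 residual and 4.89 prior degrees of freedom). The transgene effect weights the sexes equally. Adjusted p-values are Benjamini-Hochberg over all tested probe sets, called at 0.05. The script was tested on simulated data. Exact permutation tests used scipy 1.17.1. Symbols came from the platform annotation, in which 10833 probe sets had 1 symbol, 396 several and 1193 none, and a gene is represented by its brightest probe set. All members were named, and in each pathway list up to 3 called genes in each direction, by smallest p. Promoter sequences and coordinates are RefSeq's (GRCm38.p6). The members, lists, tests and alternatives were chosen with earlier results of these data known. The alternatives were quantile normalization, a higher floor (40th percentile), an added constant of 50 before log2, no filter, a filter to the brightest 40%, array weights, only the groups compared, the replicate block, both identical columns, and arrays left out. Centring on cardiomyocyte markers and a common median were chosen after seeing the data.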

Additional observations from a re-analysis of the deposited data

Results flagged for a closer look

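Dixon's test of the gap over the range was run on linear signals, whereas limma used log2. In 3 of 18 sets of a member's signals in a group, 1 array lay far from the others. Chance gives about 1 group in 20 where signals are normally distributed, which was not checked for these linear signals. The gaps on the log2 scale were not tested. Pdk4 was 3376.9 on the array of TG female 1 of 3 weeks, a gap of 0.668 of the range of 6 arrays, and without that array the log2 difference between TG and FVB hearts was -2.32 (adjusted p = 4.8e-06 in limma). Pdk4 was 10238.3 on the array of FVB male 3, a gap of 0.767 of the range of 5 arrays, and without it the difference was -1.93 (adjusted p = 5.7e-05). Pdha1 was 13990.6 on the array of TG female 2 of 3 weeks, a gap of 0.819 of the range of 6 arrays, and without it the difference was -0.99 (adjusted p = 6.7e-05).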

How the results depend on the processing

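At 3 weeks the count of members called stayed between 4 and 7 over 23 alternatives, against 6 in the main analysis. In females 6 became 1 with array weights, 2 with only the groups compared and 2 centred on cardiomyocyte markers, and 3 to 6 leaving out 1 array. The sex difference gave 0 to 1 leaving out 1 array. At 13 weeks the count of 0 became 1 under quantile normalization, the higher floor, an added constant of 50 before log2, the brightest 40%, array weights and only the groups compared. At 40 weeks the count of 1 became 0 with no filter and with the brightest 40%, where Irs2 was not tested, 2 with array weights, and 0 to 1 leaving out 1 array. The causes of these changes were not tested.

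These log2 differences turned in sign. Centred on cardiomyocyte markers they were 0.16 for Pdha1 at 3 weeks, 0.23 in females and 0.089 in males, -0.053 for Irs2 at 13 weeks, -0.13 for Slc2a1 at 40 weeks and 0.024 for Gys1 between the age changes. Irs2 in males was -0.056 with the higher floor and -0.22 without the 3 FVB arrays, the sex difference of Pygm was -0.19 without the 3 FVB arrays, and Slc2a1 at 40 weeks was -0.21 with array weights. Leaving out 1 array in turn, the ranges were -0.21 to 0.45 for Irs2 in males, -0.27 to 0.93 for Pygm, -0.0011 to 0.45 for Pdha1 and -0.00093 to 1.62 for Irs2 in the sex difference, -0.11 to 0.031 for Pdha1 at 13 weeks and -0.21 to 0.23 for Slc2a1 at 40 weeks. Of the pathway genes, 47 were called at 3 weeks and 30 with array weights, where 3474 and 2447 of all tested probe sets were. In females 26 became 7 with array weights, 8 with only the groups compared, 17 without TG female 1 and 43 centred on cardiomyocyte markers. In males 30 became 57 so centred. Among all tested probe sets 2587 became 699, 1013, 1810 and 4273 in females under these settings, and 2211 became 5612 in males. Their sex difference gave 0, and 1 with no filter, 2 with both identical columns kept and 8 without FVB female 3. At 13 weeks 0 became 1 with quantile normalization or array weights, and at 40 weeks 2 became 11 with array weights, where over all probe sets 50 became 803, and 1 with no filter or without TG female 2 or 3 of either age. Over all probe sets, 3474 were called at 3 weeks and 5839 centred on cardiomyocyte markers.

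Of 40 pairs of arrays with the same replicate number 16 correlated above 0.1, at -0.34 to 0.47 over all pairs. All 3 pairs did so between TG males of 13 weeks and TG females of 40 weeks (0.16, 0.32 and 0.47) and between no other 2 groups, so the numbers were not taken to pair the samples in any comparison with 3 weeks. With the replicate block 6 members were called at 3 weeks, 6 in each sex, 0 at 13 weeks, 1 at 40 weeks and 0 between the age changes, where Irs2 stayed at -2.33. Signals near the floor limit Irs2, Insr and Irs1, and also Slc2a1 in FVB hearts, where it was 57.4 to 148.6. They also limit Pdk3 in FVB hearts, at 31.7 to 115.7. The filter took the mean over all arrays, most of them TG, so it favoured genes high in TG hearts.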
